A study of Mus musculus with 6 samples.

Results

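The 10 genes described here are 9 genes of prostaglandin synthesis, breakdown and signalling and the oxytocin receptor gene, a set relevant to contraction of the uterus. They were taken from a fixed list of symbols, matched to the symbols of the array without regard to case. All 10 were found, as 14 of the 26423 probes and as 10 of the 17742 named genes. Ptger4 had 3 probes, Ptgfr and Hpgd had 2 each, and Ptgs1, Ptgs2, Ptges, Ptgis, Ptgds, Ptger3 and Oxtr had 1 each.

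SHT, or Sheng-Hua-Tang, is a mixture of herbs traditionally given after childbirth. Female BALB/c mice were dosed orally with 200 mg/kg of it daily over 7 days, while the mock animals were left untreated. Brain, ovary and uterus were taken, and amplified Cy5-labelled RNA of each was hybridised to a 1-colour array. Each of the 3 tissues has 1 mock and 1 SHT array, which makes 6 groups of 1 array, and the labels give neither the animals' age nor any pooling. Nothing is replicated within a group, so precision is limited by the small number of arrays.

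Values are the deposited intensities, a linear measure of spot brightness. The array medians lay between 179 and 224. Background was read from 529 olfactory receptor genes, which are used mainly in the nose. Their 95th percentile on an array is called its background limit, and was 541 for mock and 275 for SHT brain, 312 for mock and 403 for SHT ovary, and 295 for mock and 318 for SHT uterus. Of all genes, 65.9% were above it on at least 1 array and 36.5% on all 6, against 10 and 1 of the 10 genes described here. The marker lists went against 4 of the 6 labels. All 7 neuronal genes were above the background limit on mock brain and on SHT ovary, 4 on mock ovary, 5 on SHT uterus, 1 on mock uterus and 0 on SHT brain. Of 10 granulosa, luteal and oocyte genes, 9 were above it on the arrays labelled SHT brain and mock uterus, and 1 on each of the others. All 12 keratin and squamous genes were above it on mock ovary and on SHT uterus, and 3 to 6 elsewhere. Of 10 genes of the uterine tract, 9 were above it on the arrays labelled SHT brain and SHT uterus, 7 on mock ovary, 6 on mock uterus and 5 on the other two. Pearson's r over the log2 values of all probes was highest, of the 15 pairs of arrays, for mock brain with SHT ovary (0.996), SHT brain with mock uterus (0.981) and mock ovary with SHT uterus (0.972). Arrays are named by their labels throughout, and these pairs are called the neuronal, gonadal and keratin-rich arrays for their leading genes. No array was moved to another group.

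Prostaglandins are short-lived lipid signals made from arachidonic acid, which phospholipase A2 enzymes release from membranes. The cyclooxygenases, encoded by Ptgs1 and Ptgs2, turn it into prostaglandin H2, and terminal synthases then make prostaglandin E2, D2, F2α, prostacyclin or thromboxane, each of which acts on its own G protein-coupled receptors. In the female reproductive tract these signals take part in ovulation, in the regression of the corpus luteum and in labour, where prostaglandin F2α and oxytocin, acting through the receptors encoded by Ptgfr and Oxtr, make uterine smooth muscle contract. In brain, prostaglandin D2 is made largely by the enzyme encoded by Ptgds, which is abundant in the meninges, the choroid plexus and oligodendrocytes.

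Among the 10 genes, 3 patterns were seen across the arrays. Ptgds was high on the neuronal arrays, Ptgfr on the gonadal arrays, and Ptgis, Ptges, Hpgd and Oxtr on all 4 arrays other than the neuronal ones. How many of all genes have each of these patterns was not counted, so they are not shown to be particular to these genes. Ptgs1 was above the background limit on all 6 arrays and varied least, while Ptgs2, Ptger3 and Ptger4 stayed near or below the limit. The log2 range over the 6 arrays had a median of 4.38 for the 10 genes and 1.45 for all genes, with Ptgs1 at 1.76 and Ptgfr at 6.86. In these bulk samples, fewer cells of a type and less RNA per cell cannot be told apart.

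**Figure D1:**
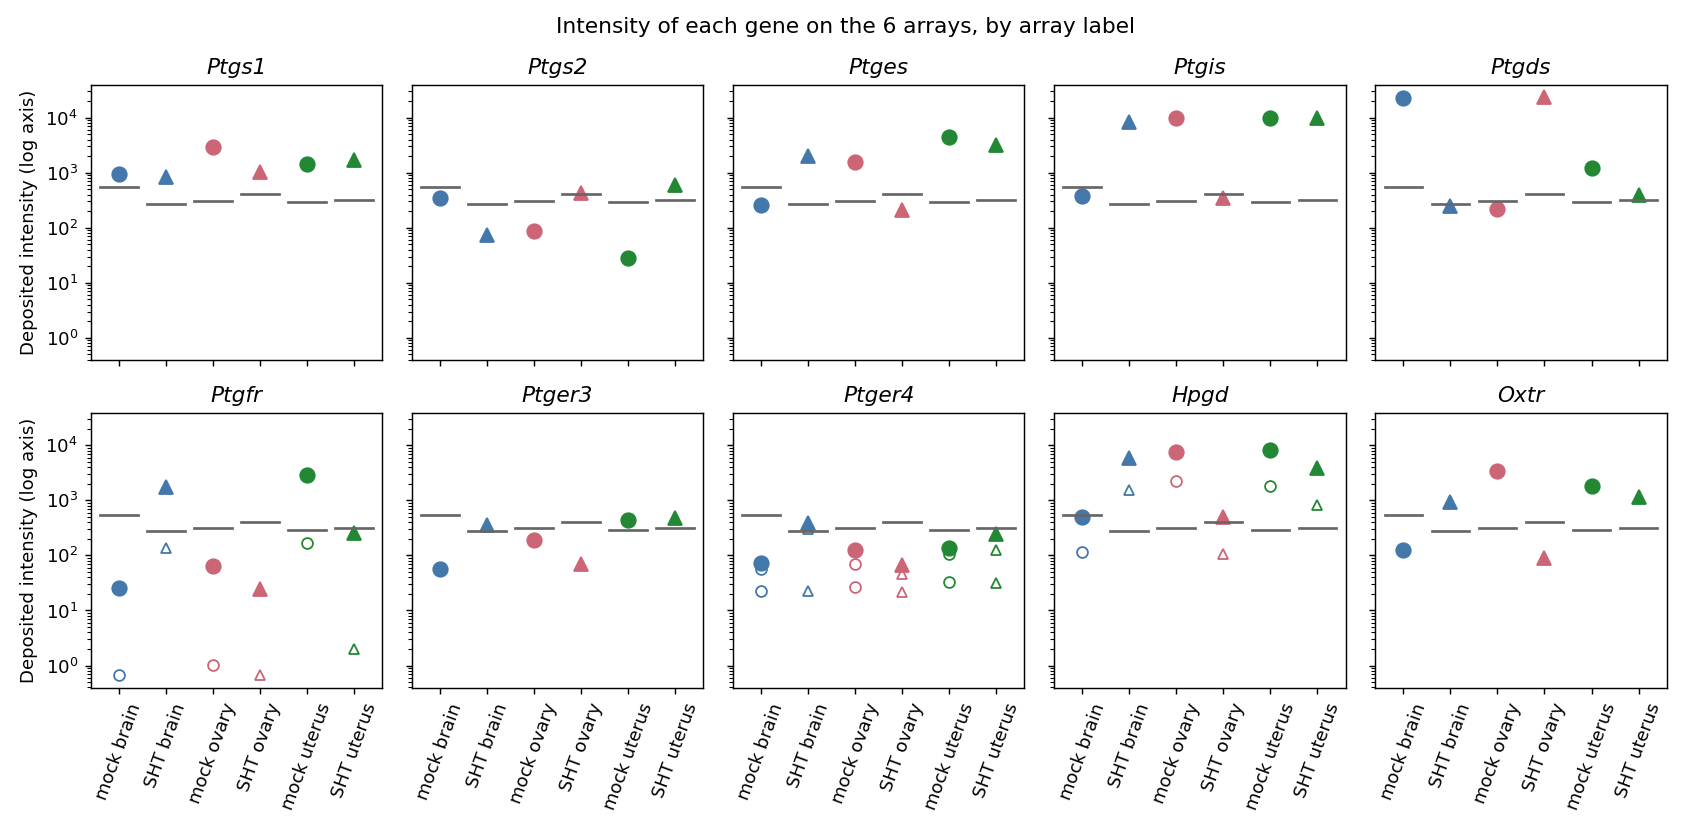
Each panel shows 1 gene, with deposited intensity on a log axis and the 6 arrays by label on the horizontal axis. Circles are mock and triangles SHT arrays, filled symbols are the probe that stands for the gene, open symbols its other probes, and grey bars the background limit of that array. Ptgds stands at 22834 on mock brain and 23270 on SHT ovary, and Ptgfr is above its bar on the arrays labelled SHT brain and mock uterus alone. Levels are not compared between panels, since probes differ in brightness.

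Ptgs1 encodes the cyclooxygenase that most tissues make constantly. It read 967 on mock brain, 849 on SHT brain, 2876 on mock ovary, 1028 on SHT ovary, 1435 on mock uterus and 1697 on SHT uterus. The array labelled mock ovary was thus the highest, and the array labelled SHT brain the lowest, with a 3.39-fold range.

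Ptgs2 encodes the inducible cyclooxygenase, which is switched on by inflammatory signals, by the ovulatory surge in follicles and by activity in neurons. It read 345 on mock brain, 74.8 on SHT brain, 86.1 on mock ovary, 422 on SHT ovary, 28.6 on mock uterus and 598 on SHT uterus. It was above the background limit on 2 arrays, those labelled SHT ovary and SHT uterus, and the first exceeded its limit of 403 only slightly. On the array labelled SHT uterus, all 6 neutrophil genes were also above the limit. Their summed intensity was 93089 there and 2021 to 12675 on the other 5 arrays. Of 6 macrophage genes, 5 were above the limit there, but also on SHT brain, mock ovary and mock uterus. The macrophage sum was 3766 to 14065 elsewhere and 48911 on SHT uterus, where Cd14 alone read 35712. Il1b, an inflammatory cytokine gene of the neutrophil list, read 24970 there and at most 956 elsewhere. The part of these cells in the Ptgs2 value was not tested.

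Ptges encodes the microsomal synthase of prostaglandin E2 that acts together with the inducible cyclooxygenase. It read 257 on mock brain, 2043 on SHT brain, 1557 on mock ovary, 211 on SHT ovary, 4391 on mock uterus and 3168 on SHT uterus. The 4 arrays other than the neuronal ones were above the background limit and the neuronal arrays below it. How many of all genes split the arrays in this way was not counted.

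Ptgis encodes prostacyclin synthase, an enzyme of vessel walls and smooth muscle whose product relaxes muscle and keeps platelets apart. It read 379 on mock brain, 8333 on SHT brain, 10015 on mock ovary, 351 on SHT ovary, 9867 on mock uterus and 9809 on SHT uterus. The 4 high arrays lay close together, and both neuronal arrays were below the background limit. Of 10 fibroblast and endothelial genes, 9 were above the limit on each of the 4 high arrays, with summed intensities of 19096 to 52032. On mock brain and SHT ovary 3 and 6 were, with 11297 and 10397. Col1a1 of that list ran the other way, with 5731 and 5705 on these 2 arrays and 78.7 to 240 on the 4 high ones. The part of fibroblasts and endothelium in the Ptgis value was not tested.

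Ptgds read 22834 on mock brain, 253 on SHT brain, 217 on mock ovary, 23270 on SHT ovary, 1201 on mock uterus and 389 on SHT uterus. Both neuronal arrays were far above the rest, and the arrays labelled mock uterus and SHT uterus were above the background limit at a much lower level. All 7 oligodendrocyte genes were above the limit on both neuronal arrays, with summed intensities of 70829 and 68288. On each other array 4 of 7 were, with 6440 to 9555. Mal of that list did not run with Ptgds: it read 2380 on mock brain and 2752 on SHT ovary, but 2408 on mock ovary and 4429 on SHT uterus. Cnp also read 4761 on SHT brain. The neuron list split the arrays too, with sums of 144474 and 153238 on the neuronal arrays and 719 to 5641 elsewhere. The list of the meninges and choroid plexus was mixed. By count, 4 and 5 of its 11 genes were above the limit on the neuronal arrays and 3 to 7 on the others. Its 4 widest-ranging genes above the limit on an array did not run alike. Ttr, the transthyretin of the choroid plexus, read 1607 and 2515 on the neuronal arrays and at most 274 elsewhere. Foxd1 read 376 and 412 there and at most 118 elsewhere. Dcn, in contrast, read 4190 and 3323 on the neuronal arrays and 36531 to 56602 elsewhere. Folr1 read 49.7 and 50.2 on the neuronal arrays, and 1301 and 1765 on the gonadal ones. Of the rest of the list, Igf2 read 8245 and 6697 on the neuronal arrays and 577 to 1679 elsewhere. Slc6a13 read 2228 and 2123 there and 227 to 503 elsewhere. Kl and Kcnj13 were also brightest on the neuronal arrays, but below the limit on every array. Aldh1a2, Slc47a1 and Clic6 were brightest on other arrays. Mast cells also make prostaglandin D2, but mainly with the synthase encoded by another gene, Hpgds. The brighter Hpgds probe read 160 and 186 on the neuronal arrays, below the limit, and 304 to 535 on the other arrays, above it. Of 8 mast cell genes, 3 to 6 were above the limit on each array. The part of any cell type in the Ptgds value was not tested.

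Hpgd encodes the dehydrogenase that inactivates prostaglandins E2 and F2α. Its brighter probe read 488 on mock brain, 5836 on SHT brain, 7636 on mock ovary, 496 on SHT ovary, 8051 on mock uterus and 3874 on SHT uterus. Its other probe ran the same way (Pearson's r of 0.997 over the 6 arrays), between 105 on SHT ovary and 2252 on mock ovary. The neuronal arrays were lowest with either probe, and the array labelled SHT uterus was the lowest of the other four.

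Among the receptors, Ptgfr encodes the receptor of prostaglandin F2α, the signal for regression of the corpus luteum in mice. Its brighter probe read 25.7 on mock brain, 1766 on SHT brain, 65.4 on mock ovary, 24.5 on SHT ovary, 2852 on mock uterus and 254 on SHT uterus. The gonadal arrays were above the background limit and the other 4 below it. Its second probe was below the limit on all 6 arrays, yet ran alike (r of 0.905), with 137 and 171 on the gonadal arrays and at most 1.99 on the others. On the same 2 arrays Akr1c18, whose enzyme breaks down progesterone in the mouse corpus luteum, read 44640 and 49970 against 347 to 786 elsewhere. Star, which carries cholesterol to the steroid-making enzymes, read 9160 and 10428 there and at most 78.3 elsewhere. Star is from the list of cumulus and ovulation genes, whose other widest-ranging members, Pgr, Adamts1 and Has2, were brightest on the keratin-rich arrays. For mock ovary and SHT uterus, Pgr had 19510 and 13506, Adamts1 7747 and 7542, and Has2 1098 and 747. For SHT brain and mock uterus, Pgr had 4452 and 1844, Adamts1 2251 and 1130, and Has2 56.6 and 34.1.

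Ptger3 and Ptger4 encode receptors of prostaglandin E2, of which the former can make uterine muscle contract and the latter raises cyclic AMP. Ptger3 read 56.1 on mock brain, 359 on SHT brain, 188 on mock ovary, 69.8 on SHT ovary, 441 on mock uterus and 472 on SHT uterus. It was above the background limit on 3 arrays, those labelled SHT brain, mock uterus and SHT uterus, by less than 1.5 times its limit on each. The brightest probe of Ptger4 read 73.8 on mock brain, 394 on SHT brain, 124 on mock ovary, 65.8 on SHT ovary, 138 on mock uterus and 245 on SHT uterus, and passed the limit on the array labelled SHT brain alone. A second Ptger4 probe ran alike, with 304 on that array and 45.6 to 127 elsewhere (r of 0.966). The third probe was flat at 21.2 to 33.4 and did not follow either (r of 0.331 and 0.246).

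Oxtr encodes the receptor of oxytocin, the peptide hormone of labour and milk ejection. It read 124 on mock brain, 918 on SHT brain, 3482 on mock ovary, 90.3 on SHT ovary, 1824 on mock uterus and 1146 on SHT uterus. The 4 arrays other than the neuronal ones were above the background limit and the neuronal arrays below it, a split not counted over all genes. The array labelled mock ovary was the highest. Of 15 contraction genes of smooth muscle above the limit on an array, 3 were highest on that array, namely Acta2 (60854), Tagln (3050) and Des (13587). Another 7 were highest on SHT uterus, among them Smtn (15809 against 15183 on mock ovary), Cald1 (13480 against 8457) and Lmod1 (623 against 428), which were chosen after their values were seen. A further 4 were highest on a neuronal array and 1 on mock uterus. The order of Oxtr over the arrays was not that of Acta2, Tagln and Des: the array labelled SHT uterus, with 59636, 2634 and 7001 for the same 3 genes, read lower for Oxtr than the array labelled mock uterus, with 45362, 540 and 711. The part of smooth muscle content in the Oxtr value was not tested.

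The promoters of 4 of these genes are shown because they stand for the 3 patterns: Oxtr and Hpgd, the 2 genes whose profiles over the arrays were closest to each other among the 9 compared (all but Ptger4), then Ptgfr and Ptgds. RefSeq promoter entries for the mouse build GRCm38.p6 were found for 9 of the 10 genes, all but Ptgis. Each run gives the 250 bases before the annotated start, 5′ to 3′ on the gene's strand. Capitals mark matches on either strand to a TATA box (TATAAA), an E-box (CANNTG), a GC box (GGGCGG), a nuclear receptor motif (AGGTCA) or the core of a cyclic AMP response element (TGACG). The regions are chr6:112489826-112490075, minus strand, for Oxtr, chr8:56294302-56294551, plus strand, for Hpgd, chr3:151837529-151837778, minus strand, for Ptgfr, and chr2:25469750-25469999, minus strand, for Ptgds.
Oxtr: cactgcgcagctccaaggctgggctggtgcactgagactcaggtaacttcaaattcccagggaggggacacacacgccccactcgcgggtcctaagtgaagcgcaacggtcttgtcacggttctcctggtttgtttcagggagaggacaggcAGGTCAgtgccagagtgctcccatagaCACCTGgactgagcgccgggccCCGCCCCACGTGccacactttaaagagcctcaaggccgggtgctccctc
Hpgd: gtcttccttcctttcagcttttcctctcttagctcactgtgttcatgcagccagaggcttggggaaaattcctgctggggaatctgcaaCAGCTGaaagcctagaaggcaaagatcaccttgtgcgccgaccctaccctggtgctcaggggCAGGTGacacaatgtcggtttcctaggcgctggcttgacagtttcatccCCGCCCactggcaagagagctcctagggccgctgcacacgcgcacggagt
Ptgfr: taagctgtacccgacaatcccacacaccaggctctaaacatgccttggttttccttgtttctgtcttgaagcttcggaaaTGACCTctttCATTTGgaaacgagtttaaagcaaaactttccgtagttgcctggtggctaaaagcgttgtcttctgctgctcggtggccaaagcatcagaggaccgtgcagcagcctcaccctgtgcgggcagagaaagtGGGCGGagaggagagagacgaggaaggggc
Ptgds: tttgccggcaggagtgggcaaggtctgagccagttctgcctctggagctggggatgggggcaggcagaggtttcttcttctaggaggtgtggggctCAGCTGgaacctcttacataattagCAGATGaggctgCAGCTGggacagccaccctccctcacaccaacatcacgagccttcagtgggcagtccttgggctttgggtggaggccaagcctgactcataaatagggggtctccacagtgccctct

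In the Oxtr window an AGGTCA match began 98 bases before the start, E-boxes 71 and 43 bases before it, and a GC box 49 bases before it, directly beside the nearer E-box. The Hpgd window held E-boxes at 161 and 99 bases and a GC box at 50 bases before the start. The Ptgfr window held an AGGTCA match at 170 bases, an E-box at 160 and a GC box at 30. The Ptgds window held 3 E-boxes, at 154, 129 and 117 bases, and no GC box. No TATAAA and no TGACG was present in these 4 windows. Of 32851 promoter windows of the same length, 66.2% held an E-box, 32.7% a GC box, 17.8% a TGACG, 14% an AGGTCA and 12.4% a TATAAA. Such matches describe letters and do not show a bound site.

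The study's first comparison set SHT against mock within the label brain. Ptgds was lower, and Ptges, Ptgis, Hpgd and Oxtr were higher, on the array labelled SHT brain, a gonadal array, than on the array labelled mock brain, a neuronal one. Differences are taken relative to the median gene of the pair, which differed by -0.12 on the log2 scale. Where the dimmer array was below its background limit, the fold is a lower bound against that limit. A gene counted as higher or lower if it differed at least 2-fold and its pair mean exceeded the median pair mean of all probes. Of the 10 genes, 6 had such a pair mean, of which 4 were higher and 1 lower, where 24.7% of all 10746 genes were higher and 21.7% lower. Ptgds was at least 76.6-fold lower. Ptgis was at least 16.7-fold higher, Hpgd at least 11.7-fold, Ptges at least 4.10-fold and Oxtr at least 1.84-fold, the last counted as higher from its readings, although its bound is under 2-fold. Ptgs1 was 1.05-fold lower, inside the threshold. Of the 4 genes below the level cut, Ptgfr was at least 3.54-fold higher, Ptgs2 was below the background limit on both arrays, and Ptger3 and Ptger4 passed the limit on the array labelled SHT brain only, at levels under the limit of the other array. Over all 10 genes the median log2 difference as read was 2.90, where that of all genes is 0 by construction.

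Within the label ovary the directions turned. Ptgds was higher and Ptgis, Oxtr, Hpgd, Ptges and Ptgs1 lower on the array labelled SHT ovary, a neuronal array, than on the array labelled mock ovary, a keratin-rich one. Of the 6 genes above the level cut, 1 was higher and 5 lower, where 23.0% of all 10692 genes were higher and 23.4% lower, and the median gene differed by 0.13. Ptgds was at least 68.3-fold higher. Ptgis was at least 27.2-fold lower, Hpgd 16.8-fold, Oxtr at least 9.45-fold and Ptgs1 3.06-fold. Ptges was at least 4.2-fold lower. Ptgs2 was below the level cut and read at least 1.24-fold higher. Ptgfr, Ptger3 and Ptger4 were below the background limit on both arrays, so no fold is given. Over all 10 genes the median log2 difference as read was -1.59.

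Within the label uterus fewer of these genes differed, and so did a smaller share of all genes. Of the 8 genes above the level cut, 0 were higher and 3 lower on the array labelled SHT uterus, a keratin-rich array, than on the array labelled mock uterus, a gonadal one, where 13.1% of all 10765 genes were higher and 8.26% lower. The median gene differed by -0.02. Ptgfr was at least 8.86-fold lower, Ptgds 3.06-fold and Hpgd 2.05-fold. The Hpgd call was lost with a floor at the olfactory receptor median. The Ptgfr call was lost with the mean of its probes because its pair mean fell under the level cut. Its log2 difference was then -4.18. Oxtr was 1.57-fold lower and Ptges 1.37-fold lower, both inside the threshold, and Ptgs1, Ptger3 and Ptgis were within 1.20-fold. Ptgs2, below the level cut, was at least 2.05-fold higher, and Ptger4 was below the background limit on both arrays. Over all 10 genes the median log2 difference as read was -0.22. In the same pair, all 7 granulosa, luteal and oocyte genes above the level cut were lower, and all 11 keratin, all 5 neutrophil and all 5 macrophage genes were higher, as were 7 of 9 genes of the uterine tract. Their part in the differences of these genes was not tested, and in all 3 comparisons the treatment and the tissue sampled cannot be told apart.

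**Figure D2:**
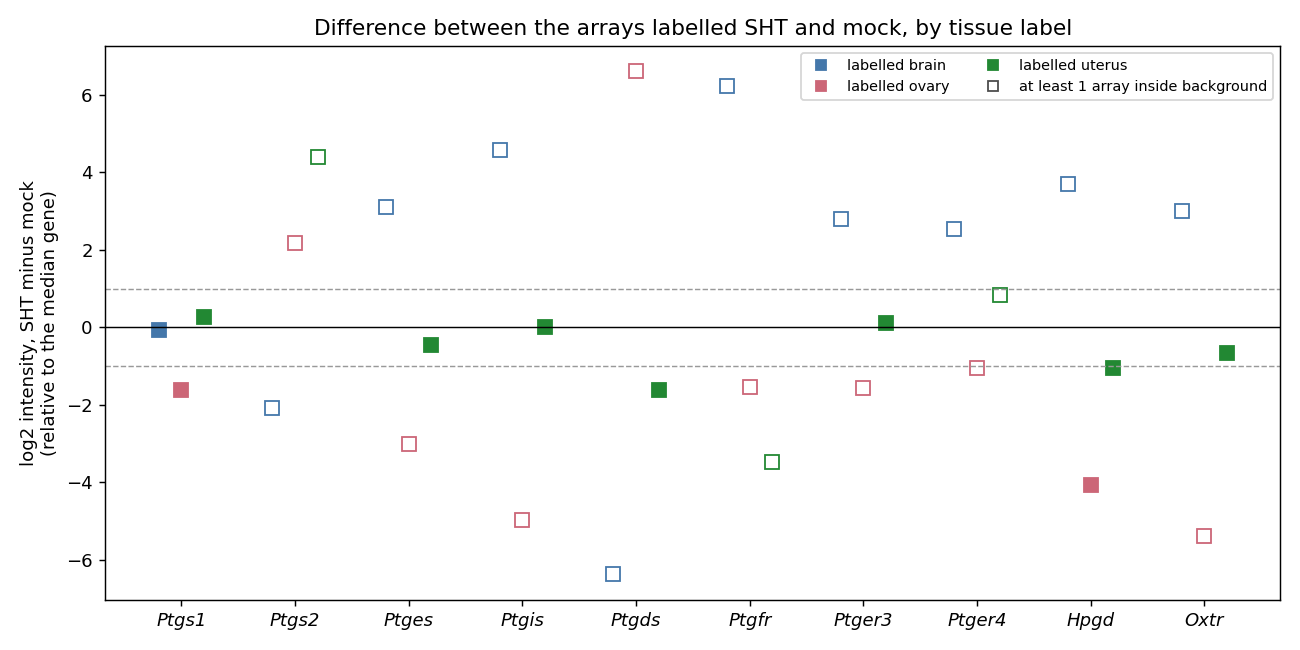
The log2 intensity difference of the SHT array minus the mock array, relative to the median gene, is plotted for each gene and tissue label, with dashed lines at 2-fold. Open squares are differences in which at least 1 of the arrays was inside the background. Ptgds, Ptges, Ptgis, Hpgd and Oxtr lie on opposite sides of 0 for the labels brain and ovary.

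The average SHT effect over the 3 tissue labels is the one test the design allows. It was fitted with limma, with the tissue label as a block, and measures the spread between labels and not between mice. The marker lists went against 4 of the 6 labels, so the block does not hold the tissue constant. The fit therefore cannot tell an effect of SHT from the tissue sampled, and an absence of calls does not show an absence of effect. At an adjusted p under 0.05 it called 0 of 10763 genes (0%), and 4 genes had an unadjusted p under 0.05. Of the 10 genes, 6 were tested and 0 called. Their average log2 effects ran from -1.02 for Oxtr (SE 1.75) to -0.12 for Ptges (SE 1.29), each smaller than its standard error. The smallest unadjusted p among them, from limma, was 0.445, for Ptgs1.

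The other genes of these pathways were read from lists. Of 26 other genes of eicosanoid synthesis, transport and breakdown, 20 were above the level cut in the pair labelled brain, of which 9 were higher and 3 lower on the SHT array (all genes 24.7% and 21.7%). In the pair labelled ovary 2 of 22 were higher and 11 lower (all genes 23.0% and 23.4%), and in the pair labelled uterus 8 of 22 were higher and 2 lower (all genes 13.1% and 8.26%). Pla2g4a, which encodes the cytosolic phospholipase A2 that frees arachidonic acid, read 507 on SHT brain, 410 on mock ovary and 524 on SHT uterus, all above the background limit, and 232 on mock uterus, 18.3 on mock brain and 17.2 on SHT ovary. Cbr2, a carbonyl reductase gene, read 35883 on SHT brain, 19503 on mock ovary and 41002 on SHT uterus, but 2967 on mock uterus, the other gonadal array. Alox5, the leukotriene-producing lipoxygenase gene, read 466 on mock ovary and 1150 on SHT uterus, and was below the limit on the other 4 arrays. Slco2a1, a prostaglandin transporter gene chosen after its values were seen, was likewise lowest on the neuronal arrays, with 910, 1240, 1096 and 986 on the 4 arrays other than the neuronal ones and 214 and 186 on the neuronal arrays.

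Of 7 other prostanoid receptor genes and partners, 4 were above the level cut in each pair. There, 1 was higher and 0 lower in the pair labelled brain, 0 higher and 1 lower in ovary, and 1 higher and 0 lower in uterus. The shares of all genes were 24.7% higher and 21.7% lower in brain, 23.0% and 23.4% in ovary, and 13.1% and 8.26% in uterus, so 1 of 4 lies near the background in brain and ovary. In each case the gene was Ptgfrn, which encodes a regulator that binds the prostaglandin F2α receptor, with 2250 on mock brain, 5346 on SHT brain, 7814 on mock ovary, 2593 on SHT ovary, 4249 on mock uterus and 11133 on SHT uterus. Its order differed from that of Ptgfr, which was brightest on mock uterus. Ptger1, the gene of a further prostaglandin E2 receptor, was nearly flat at 505 to 763. Tbxa2r, of the thromboxane receptor, read 673 to 1417 and Ptgdr2, of a prostaglandin D2 receptor, 356 to 599. Ptger2, at 103 to 179, and the prostacyclin receptor gene Ptgir, at 26.2 to 217, were below the background limit on all 6 arrays.

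Oxt, the gene of oxytocin itself, was below the background limit on all 6 arrays, at 44.3 to 88.4, so its level could not be read. Of the 6 oxytocin and vasopressin genes, only the vasopressin receptor gene Avpr1a passed the limit, on the array labelled SHT uterus, with 544 there against 122 on mock uterus and 203 on mock ovary. None of the 6 was above the level cut in the pairs labelled brain and ovary, and 1, Avpr1a, was higher in the pair labelled uterus.

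Of 17 contraction genes of smooth muscle, 13 were above the level cut in the pair labelled brain, with 6 higher and 5 lower on the SHT array, where the shares of all genes were 24.7% and 21.7%. In ovary 3 of 13 were higher and 7 lower, beside 23.0% and 23.4% of all genes. In uterus 6 of 15 were higher and 0 lower, beside 13.1% and 8.26%. Tagln, Des and Acta2, given beside Oxtr, and Plcb1 had the widest ranges of this list among genes above the background limit on an array. Plcb1, a phospholipase C gene, read 7332 and 7493 on the neuronal arrays and 245 to 757 on the others. Gja1, the gene of the connexin that couples uterine muscle cells in labour, had a narrow range. It read 22822 on mock brain, 41525 on SHT brain, 35690 on mock ovary, 22415 on SHT ovary, 47074 on mock uterus and 32266 on SHT uterus, and differed by less than 2-fold in all 3 labelled pairs. Of 9 cumulus and ovulation genes, 5 were above the level cut in the pair labelled brain, with 4 higher and 0 lower, where 24.7% and 21.7% of all genes were. In ovary 0 of 4 were higher and 3 lower (23.0% and 23.4% of all genes), and in uterus 3 of 5 were higher and 1 lower (13.1% and 8.26%). Has2, a hyaluronan synthase gene of that list, read 1098 on mock ovary and 747 on SHT uterus, and at most 56.6 elsewhere.

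**Figure D3:**
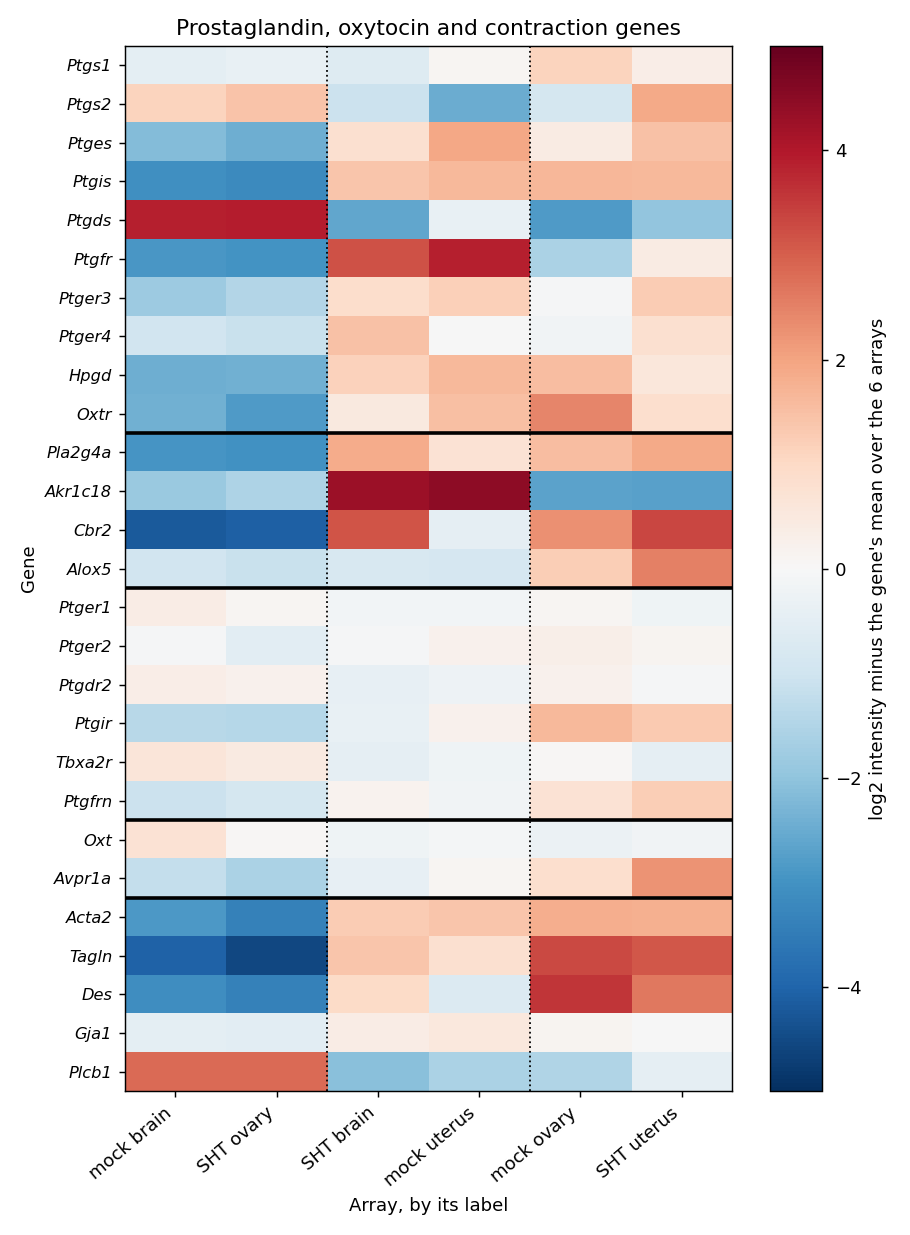
Colours give each gene's log2 intensity minus its own mean over the 6 arrays, with arrays ordered by their closest correlation and dotted lines between the neuronal, gonadal and keratin-rich pairs. Thick lines separate the 10 genes, other eicosanoid genes, other prostanoid receptors, oxytocin and vasopressin genes, and contraction genes. Ptgds and Plcb1 are high on the 2 neuronal arrays, and Ptgfr and Akr1c18 on the 2 gonadal arrays.

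The genes whose profiles were most like those of the 10 were found by the root mean square distance between log2 profiles centred over the 6 arrays, as a description with no test. Agpat2 was nearest to Oxtr (0.25 log2 units, among 8816 genes above the limit on at least as many arrays), with 189 on mock brain, 2392 on SHT brain, 7141 on mock ovary, 172 on SHT ovary, 3072 on mock uterus and 2542 on SHT uterus. Tuft1 and Ehd2 followed at 0.40 and 0.43. Pdcd1 was nearest to Ptgfr (0.33), with 808 and 1278 on the gonadal arrays and 17.7 to 107 on the others, before Slc44a3 (0.51) and Mgst2 (0.52). Diras2, Fam107a and Gnao1 were nearest to Ptgds, at 0.46 to 0.50. Gda, the guanine deaminase gene, was nearest to Ptgs2 (0.39), ahead of Pla2g7 (0.54) and Dclk1 (0.57), although 4 of the 6 Ptgs2 readings were below the background limit. Serpinh1, the gene of a collagen chaperone, was nearest to Ptgis (0.13), with Tubb6 and Rcn3 at 0.17. Rhobtb1 was nearest to Ptges (0.11), before Slc27a3 (0.18) and Itga9 (0.22). Crtap, Rarres2 and Metrnl were nearest to Hpgd, at 0.31 to 0.37, AW112010, Pros1 and Card6 to Ptger3, at 0.14 to 0.17, and Ethe1, Mvk and Clip1 to Ptgs1, at 0.18 to 0.19. Among the 9 of the 10 genes above the limit on at least 2 arrays, which leaves out Ptger4, the closest profiles were those of Hpgd and Oxtr (0.50), Ptges and Ptger3 (0.56) and Ptgis and Hpgd (0.61), and the most distant were those of Ptgds and Ptgfr (5.04).

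With no replicates, the 3 pairs of most alike arrays give the only view of how far these genes differ between similar RNA. The pairs were chosen by their values and mix labels and treatments, so these differences are a description. Between mock brain and SHT ovary, 95% of the genes above the background limit on both differed by less than 0.39 on the log2 scale, and the 2 of the 10 genes that were above it on both, Ptgds and Ptgs1, differed by 0.12 and 0.18. Between the arrays labelled SHT brain and mock uterus, where that bound was 1.0, all 7 such genes lay within it, from 0.0029 for Ptgis to 0.86 for Ptges. Between mock ovary and SHT uterus, where it was 1.25, Oxtr (1.94) and Hpgd (1.31) lay outside it and Ptgs1, Ptges and Ptgis inside. Oxtr was 3.83-fold and Hpgd 2.48-fold higher on the array labelled mock ovary. Ptgds, which was below the limit on SHT brain, was at least 3.68-fold higher on mock uterus than on that array.

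**Figure D4:**
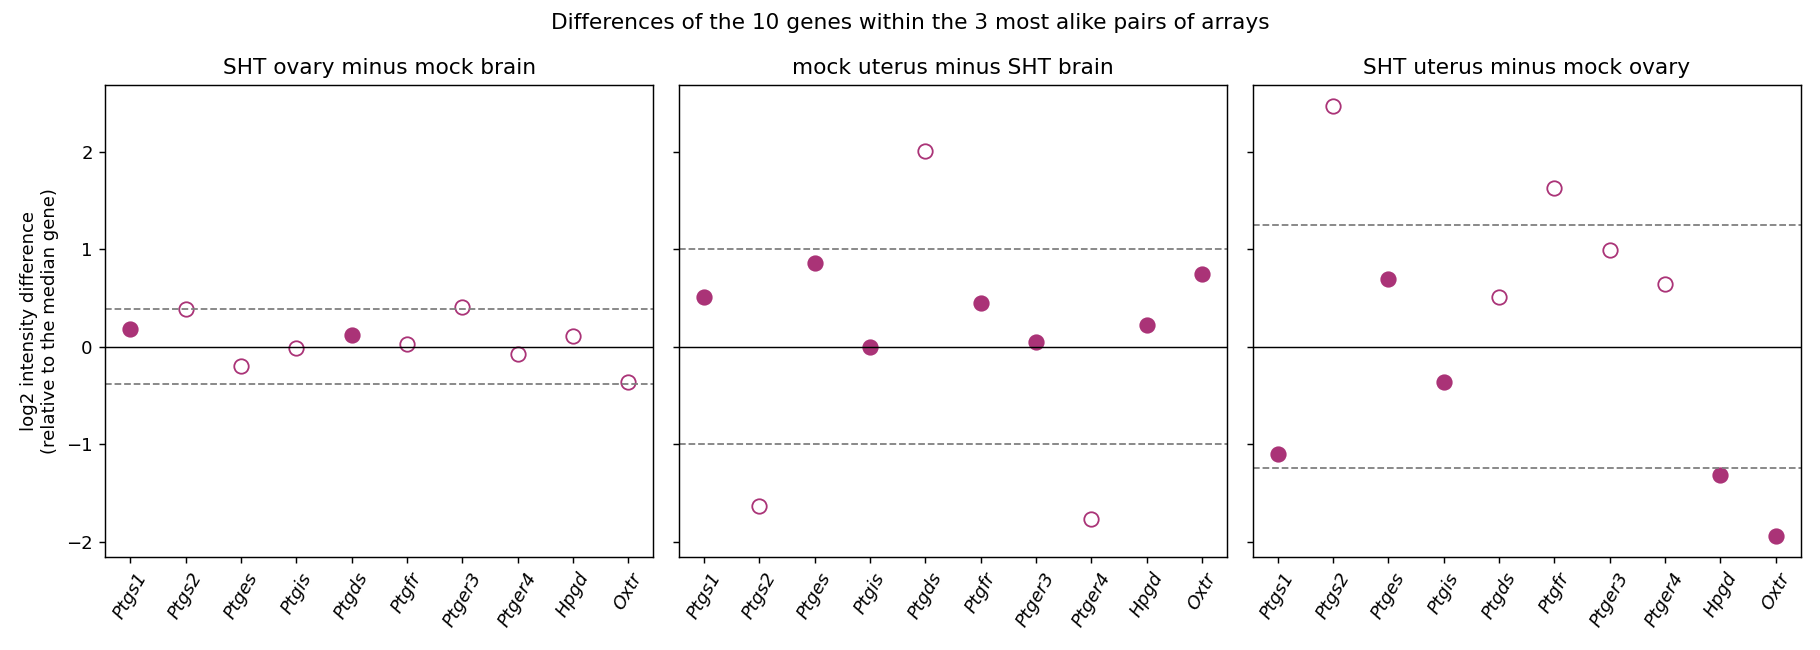
Each panel shows, for 1 of the 3 most alike pairs of arrays, the log2 intensity difference of the 10 genes relative to the median gene, with dashed lines at the 95th percentile of the absolute difference over genes above the background limit on both arrays. Filled points are genes above that limit on both arrays, and open points are not. Oxtr and Hpgd are the filled points outside the lines, in the panel of the keratin-rich arrays.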

How the data were processed

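Arrays of 3 tissue labels by 2 treatments were compared, with 1 array per group and groups taken from the labels. The deposited table holds linear intensity for each probe. The authors' tools include limma, per the submitters' processing notes, which name no version or role. The sources used here do not state how background was corrected, values scaled or probes filtered. The medians of the deposited columns are unequal, which shows no common median scaling.

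Intensities under an array's 5th percentile of positive values were set to that percentile, and log2 was taken without between-array scaling. Of the probes, 20377 had 1 gene symbol, 0 had several and 6046 had none. Through the RefSeq table of GRCm38.p6, 18213 symbols were current, 2126 were updated from synonyms and 38 stayed as deposited. The probe with the highest mean stood for a gene. Whether a probe measures the gene it is named for could not be checked from sequence here. Intensities of 65000 or more (0 to 5 probes per array) were taken as the top of the scale.

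The 10 genes, the gene lists, the background limit and the tests were chosen with earlier results of these data known. Named genes were the 10, from each pathway list the 4 with the widest range among those above the background limit on an array, fixed counterparts (Oxt, Ptger1, Ptger2, Ptgir, Tbxa2r, Akr1c18, Gja1, Pla2g4a) and the 3 nearest profiles of each gene above the limit on at least 2 arrays. Slco2a1, Hpgds and the marker genes beside a result were picked knowing their values. The fit of the average SHT effect used limma 3.58.1 in R 4.3.3 (lmFit, eBayes with a trend, two-sided, Benjamini-Hochberg adjustment over all genes above the level cut). The fit and the calling of differences were run on simulated data. For the fit, the noise came from mock brain and SHT ovary, the most alike pair, and the tissue labels held. Those runs do not show how the fit behaves where labels and markers disagree. The alternatives tried were centring on the median, quantile normalization, averaging the probes of a gene, other level cuts, a 3-fold threshold, other floors, no trend, no block and each tissue label left out.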

Additional observations from a re-analysis of the deposited data

Results flagged for a closer look

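For 5 genes the arrays labelled SHT and mock differed in opposite directions under different tissue labels, by at least 2-fold as read. The difference between labels was not tested. The log2 difference of SHT minus mock, as read, was 3.11 in brain and -3.01 in ovary for Ptges, and 4.58 and -4.96 for Ptgis. It was 3.0 and -5.40 for Oxtr. For Hpgd it was 3.70 in brain, -4.07 in ovary and -1.04 in uterus, and for Ptgds -6.38, 6.62 and -1.61. All of these except the ovary value of Hpgd and the uterus values of Hpgd and Ptgds rest on a dimmer array below its background limit, so that they have no exact size. Against that limit, the bounds in brain and ovary were 4.10-fold and 4.2-fold for Ptges, 16.7-fold and 27.2-fold for Ptgis, 1.84-fold and 9.45-fold for Oxtr, and 76.6-fold and 68.3-fold for Ptgds, and that of Hpgd in brain was 11.7-fold. The mock brain and SHT ovary arrays were in each case on the same side, and these are the 2 arrays on which all 7 neuronal genes were above the background limit. No group held enough arrays for a search for single outlying samples.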

How the results depend on the processing

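Of 150 values of the 10 genes' differences under 5 other treatments of the intensities (quantile normalization, centring on the median, the mean of a gene's probes, a floor at the olfactory receptor median, and no subtraction of the median gene, the last chosen after seeing the data), 146 stayed within 1.5-fold of the value given and 0 differences past the 2-fold threshold changed sign. The other 4 came from the mean of a gene's probes: Ptgfr moved from 6.22 to 5.39 in brain, from -1.54 to -0.80 in ovary and from -3.47 to -4.18 in uterus, and Ptger4 from 2.54 to 1.74 in brain. In each of these 4, at least 1 array was below its background limit, and in ovary both were, so neither value has an exact size. Signs turned in 6 values, all of differences near 0 (Ptgis and Ptger3 in uterus, Ptgs1 in brain). Counts of these genes depended on the level cut. With no cut, 7 were higher and 2 lower in brain, 2 higher and 8 lower in ovary, and 1 higher and 3 lower in uterus, which counts genes read inside the background. Of all 17742 genes, 3828 were then higher and 3579 lower in brain, 3658 and 3727 in ovary, and 2087 and 1623 in uterus. With the cut at the 75th percentile, 2 were higher and 1 lower in brain, 1 higher and 3 lower in ovary, and 0 higher and 1 lower in uterus. Of all genes above that cut, 1309 of 5705 were higher and 1141 lower in brain. In ovary 1272 of 5701 were higher and 1188 lower, and in uterus 590 of 5739 were higher and 311 lower. The other settings kept each count within 1.5 times, but the 3 lower calls in uterus became 2 under 3 of them. Hpgd was lost at a 3-fold threshold and, at -0.99, with the floor at the olfactory receptor median. Ptgfr was lost with the mean of its probes, where its pair mean fell under the level cut. With the cut at the 75th percentile Hpgd was the 1 gene left. limma called 0 genes and 0 of the 10 under each alternative, also with values raised to the olfactory receptor median (chosen after seeing the data). With the label ovary left out, 461 of the 10763 genes tested had an unadjusted limma p under 0.05, among them 1 of the 6 tested of these genes. With brain left out the counts were 126 and 0. The limma fit pairs mock and SHT arrays by tissue label, and without that block 3 genes had an unadjusted p under 0.05 and 0 were called. The labels give no replicate numbers to pair by. Signal over background limits Ptgs2, Ptger3 and Ptger4, whose readings lay near or inside it.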
